A study of Mus musculus with 4 samples.

Results

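Mammalian chromosomes are folded into domains whose boundaries keep the regulatory contacts of neighbouring genes apart, and the genes described here encode CTCF and 7 other nuclear proteins known for work at such boundaries or at loops between enhancers and promoters. The 8 genes were Ctcf, Yy1, Zfp143, Ldb1, Top2b, Maz, Adnp and Satb1. They were chosen by name, and all 8 were found among the 49997 gene symbols of the count tables. All 8 also passed the filter on low counts, as members of the 12783 genes tested.

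The series compared an otic progenitor line before and after differentiation into neurons, under a title that places the chromatin remodeller CHD7 at domain boundaries. Immortalized multipotent otic progenitors (iMOPs) are a mouse cell line derived from the inner ear, labelled wild-type in every library. The proliferating group (n = 2) grew in DMEM/F12 with B27, carbenicillin and basic FGF at 20 ng/ml, and the neuron group (n = 2) grew in Neurobasal medium with N21, glutamine and 1 µM K03861, an inhibitor of the kinase CDK2. All 4 libraries came from this single line, and the time spent in the neuron medium is not given in the sources used here.

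CTCF is a zinc finger protein that binds DNA in a set orientation and stops the cohesin ring as it extrudes a loop, so that bound sites often end up as loop anchors. YY1 and LDB1 bridge enhancers and promoters by pairing with themselves, LDB1 through LIM-domain partners that hold the DNA. ZNF143, encoded by Zfp143, and MAZ are zinc finger proteins found at promoters and near CTCF sites, TOP2B relaxes DNA strain near loop anchors, ADNP works with CHD4 and HP1 at sites that CTCF can also bind, and SATB1 tethers AT-rich DNA.

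The promoters of these genes were searched for the binding motifs of the factors among them, and the 3 windows shown here are those with a match in the only window, or the most upstream one, that the table used holds for the gene. The RefSeq table for GRCm38.p6, the assembly also called mm10, gave 16 promoter windows of 300 bases for the 8 genes. The letters searched, on both strands, were AANATGGCG for YY1, GGGGAGGGG for MAZ, ACTACANNT for ZNF143 and AGGGGGCGC for CTCF, where N is any base and none of these strings contains another. Each printed run goes from 250 bases before the start to 30 bases after it, 5′ to 3′ on the strand of the gene, with matches in capitals. The Ctcf window lies on the plus strand at chr8:105636288-105636567, the Adnp window on the minus strand at chr2:168207083-168207362, and the Maz window on the minus strand at chr7:127026976-127027255.
Ctcf: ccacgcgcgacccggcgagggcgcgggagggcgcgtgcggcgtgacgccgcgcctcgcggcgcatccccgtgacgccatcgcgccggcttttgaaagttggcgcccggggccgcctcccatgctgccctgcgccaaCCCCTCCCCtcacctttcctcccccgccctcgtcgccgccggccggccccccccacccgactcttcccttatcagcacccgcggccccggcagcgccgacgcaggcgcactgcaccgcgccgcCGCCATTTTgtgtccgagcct
Adnp: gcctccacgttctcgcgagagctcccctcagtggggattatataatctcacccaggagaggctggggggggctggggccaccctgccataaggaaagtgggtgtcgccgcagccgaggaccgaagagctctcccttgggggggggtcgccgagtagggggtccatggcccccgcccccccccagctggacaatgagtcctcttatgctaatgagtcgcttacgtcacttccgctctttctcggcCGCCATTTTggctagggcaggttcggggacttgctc
Maz: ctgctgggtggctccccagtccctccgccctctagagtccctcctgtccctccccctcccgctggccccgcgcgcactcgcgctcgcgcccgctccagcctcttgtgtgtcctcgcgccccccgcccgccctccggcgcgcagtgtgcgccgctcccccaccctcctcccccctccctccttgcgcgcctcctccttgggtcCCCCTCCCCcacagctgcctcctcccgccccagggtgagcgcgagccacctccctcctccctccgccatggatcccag

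In the Ctcf promoter the YY1 letters were found on the opposite strand at +10 to +18 (+1 is the start site in the table of promoters), and the MAZ letters at -114 to -106. Annotated starts differ between sources for Ctcf, with +1 at 105636538 in that table, the gene from 105636474 in RefSeq and from 105636568 in GENCODE M21. For Maz, on the minus strand, they are 127027005, 127027188 and 127027037 in the same order, and for Adnp all 3 are 168207112. The Adnp promoter held the YY1 letters at -6 to +3, reading the same bases as in Ctcf. The Maz promoter held the MAZ letters at -48 to -40. A further MAZ match lay in 1 of the 3 Ldb1 windows (-90 to -82), and a CTCF match in 1 of the 5 Satb1 windows (-121 to -113). Among all 32851 promoter windows of the table, 2.38% held the YY1 letters, 6.37% the MAZ letters, 4.16% the ZNF143 letters and 1.25% the CTCF letters. The median GC content of all these windows was 52.7%, against 75.3% for the Ctcf, 62.7% for the Adnp and 74.3% for the Maz window shown. Shares among windows of like GC content are not given here. Some windows of Zfp143 and of Satb1 overlapped each other, so the 16 are not separate stretches. The ZNF143 letters were in 0 of the 16 windows. These matches describe letters in the windows, and binding was not measured.

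The RNA levels of the 8 genes were not detectably different between neurons and proliferating cells. In edgeR's quasi-likelihood test 0 of the 8 genes were called higher and 0 lower at a Benjamini-Hochberg adjusted p-value under 0.05, against a background of 0% of all tested genes in each direction. The adjusted p-value was 0.9998 for each of the 8 genes, and 0 of them had an unadjusted p-value under 0.05, while 0.915% of all tested genes did so upward and 2.51% downward. Their log2 fold changes ran from -0.23 for Maz to 0.85 for Zfp143, 6 above 0 and 2 below, with a median of 0.26. Across all tested genes the median was 0.02 and 52% lay above 0. The CPM ranges of the 2 groups overlapped for all 8 genes, while 12.9% of all tested genes were higher in neurons without overlap and 14.5% lower. DESeq2 called 0 of the 8 and 0.462% of all tested genes.

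The libraries held 7446361 to 14484011 counts, of which 53.3% to 76.1% fell on Rn18s-rs5, a gene for 18S ribosomal RNA, and 2595578 to 3850766 counts remained for all other genes. Levels are given as CPM, the count scaled to a library size adjusted by trimmed means (TMM), ± SD over the 2 libraries of a group. Proliferating replicate 2 stood apart. It had the fewest counts outside the 18S row, 2595578, and the fewest genes with a count, 17762 against 20012 to 21637. Its log2 CPM, as a deviation from the mean over libraries, rose with the GC content of transcripts (Spearman's rho = 0.50 across 11597 genes, which are not independent). The others had a rho of -0.42 to -0.0015. Without proliferating replicate 2 the log2 fold changes were 0.090 for Ctcf, -0.091 for Yy1, 0.71 for Zfp143, 0.28 for Maz, 0.30 for Ldb1, 0.16 for Satb1, 0.23 for Adnp and 0.15 for Top2b, with a median of 0.19. The progenitor markers Pax2 and Pax8 were at 0 counts in all 4 libraries, and the 12 neuron markers summed to 162 and 349.5 CPM in the proliferating replicates and to 202 and 365 CPM in the neuron ones, so these sums did not separate the groups. The 8 progenitor markers summed to 505 and 1276 CPM before differentiation and to 514 and 308 CPM after it. The 11 glial markers, of which 5 passed the filter, had higher sums in both proliferating libraries, at 78.2 and 134 CPM against 27.0 and 9.99 CPM. The most abundant of them, Fabp7, had 22.3 and 49.0 CPM before differentiation and 17.7 and 0.917 CPM after it. The 8 hair cell markers summed to 4.96 to 25.1 CPM over the 4 libraries, with Pou4f3 and Otof at 0 in each. What part other cell types play in the values below was not tested, and in bulk RNA fewer cells of a type and less RNA per cell cannot be told apart.

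**Figure D1:**
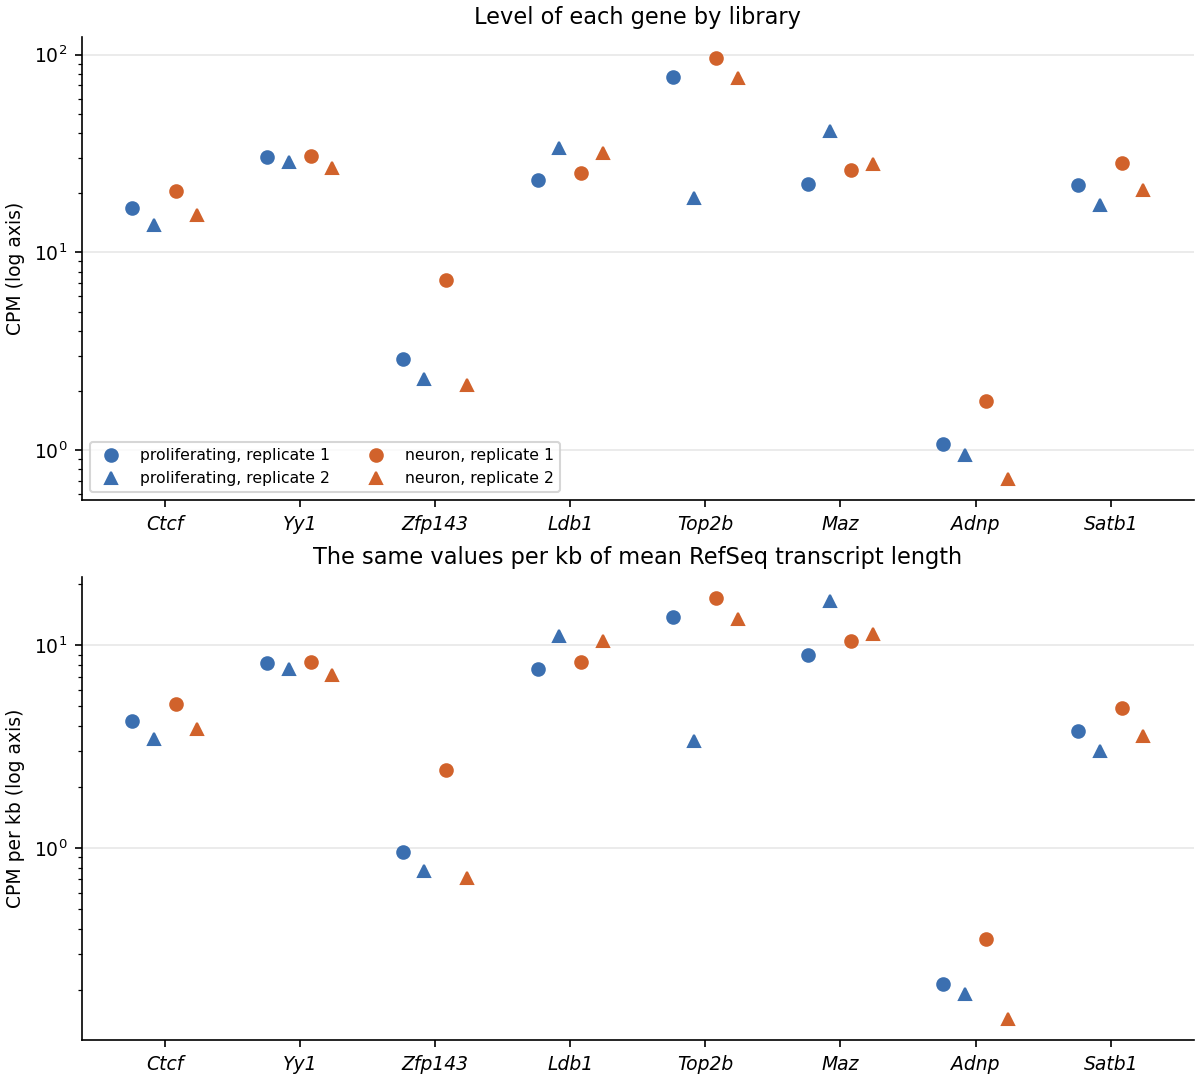
Level of the 8 genes in each library, in CPM above and in CPM per kb of mean RefSeq transcript length below, both on log axes; circles are replicate 1, triangles replicate 2, blue proliferating cells and orange neurons. The libraries of the 2 groups overlap for every gene, and Top2b in proliferating replicate 2, at 19.0 CPM, is the point farthest from the others of its gene.

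Ctcf, the boundary factor itself, kept a narrow range. It lies on chromosome 8 (GENCODE M21 on mm10, 105636568 to 105682922, plus strand). Replicates 1 and 2 gave it 205 and 102 counts before differentiation, and 243 and 151 in neurons. On the CPM scale these were 16.8 and 13.8, then 20.4 and 15.4. Both replicate 1 libraries were above the replicate 2 library of their group, and neuron replicate 2 lay between the proliferating libraries, so the groups overlapped. Mean CPM was 15.3 ± 2.15 for the proliferating group and 17.9 ± 3.57 for the neurons (SD, n = 2 each). The edgeR fit gave a fold of 1.17 with a 95% interval of 0.551 to 2.48, which holds no change as well as a doubling. Its sign turned with library size alone (-0.05 on the log2 scale), a scaling that moved the median of all tested genes to -0.27.

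Among the other zinc finger factors, Yy1 was the steadiest. YY1 acts as a dimer that joins promoters to enhancers. Its gene lies on chromosome 12 (108792973 to 108820148, plus strand). Proliferating cells gave 372 and 211 counts and neurons 366 and 261, or 30.6 and 28.6 CPM against 30.8 and 26.6 CPM. All 4 libraries thus stood within 26.6 to 30.8 CPM, with the 2 groups interleaved. The fold was 0.971, with a 95% interval of 0.480 to 1.96.

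Zfp143 encodes a promoter-bound zinc finger protein and was the lowest but one of the 8 in counts. It lies on chromosome 7 (110061217 to 110095394, plus strand). Only 35 and 17 counts came from proliferating cells, and 86 and 21 from neurons. In CPM, neuron replicate 1 stood alone at 7.23, while the other 3 libraries lay at 2.88, 2.30 and 2.14. The 2 neuron replicates differed 3.38-fold, a gap wider than that of 93.8% of all tested genes. The log2 fold change of 0.85 (SE 0.69) was -0.32 when neuron replicate 1 was left out and 1.47 when the other neuron library was.

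Maz encodes a zinc finger protein of GC-rich promoters that can insulate alongside CTCF. It lies on chromosome 7 (127022130 to 127027037, minus strand). Its 4 counts were close, 271 and 303 before differentiation and 309 and 275 after it. The CPM values were 22.3 and 41.0, then 26.0 and 28.0, so both neuron libraries fell between the proliferating ones. Maz had the lowest log2 fold change of the 8 genes, -0.23 (SE 0.49). The value was 0.28 when proliferating replicate 2 was left out and -0.63 when replicate 1 was, and it was 0.04 after a correction for GC content.

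Ldb1 encodes the adaptor that dimerizes to join LIM-domain complexes across a loop. It lies on chromosome 19 (46031570 to 46045214, minus strand) and shares 177 exon bases with Pprc1 on the other strand, and whether strand was used in counting is not given in the sources used here. Proliferating cells had 282 and 249 counts of it and neurons 300 and 314, or 23.2 and 33.7 CPM against 25.2 and 32.0 CPM. Here the replicate 2 libraries were the higher ones in both groups. The means were 28.4 ± 7.45 CPM and 28.6 ± 4.79 CPM (SD, n = 2 each), and the fold was 1.01 with a 95% interval of 0.476 to 2.13.

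Satb1 encodes a protein that gathers AT-rich DNA and is best known from T cells. It lies on chromosome 17 (51736187 to 51833290, minus strand). The proliferating libraries held 268 and 129 of its counts, and the neuron libraries 337 and 204. These gave 22.0 and 17.5 CPM, then 28.3 and 20.8 CPM, with neuron replicate 2 inside the proliferating range. The log2 fold change was 0.31 (SE 0.46), and 0.10 after the GC correction.

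Adnp encodes the homeodomain and zinc finger subunit of a complex with CHD4 and HP1, and its level is uncertain here. It lies on chromosome 2 (168180986 to 168207112, minus strand). In GENCODE M21, 4393 of its 5350 exon bases are shared with Gm20716, a gene on the same strand that is listed at 0 counts in all 4 libraries. Adnp itself was counted 13 and 7 times in proliferating cells and 21 and 7 times in neurons. How reads that match both genes were counted is not given in the sources used here. With 0.714 to 1.77 CPM, the lowest level of the 8 genes, its fold of 1.23 had a 95% interval of 0.315 to 4.83.

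Top2b had the most counts of the 8 genes and differed most between the libraries of a group. TOP2B is a type II topoisomerase present in dividing and non-dividing cells, while its relative TOP2A is tied to cell division. The gene lies on chromosome 14 (16365179 to 16435462, plus strand). Replicates 1 and 2 of the proliferating cells held 944 and 140 counts, and those of the neurons 1147 and 746. In CPM, proliferating replicate 2 was the low library at 19.0, against 77.6 in its partner and 96.5 and 76.0 in the neurons. Neuron replicate 2 lay below proliferating replicate 1, so the groups overlapped by that margin. Top2b shares 1793 exon bases with Rarb on the opposite strand, which had 5 to 107 counts per library.

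Top2b averaged 48.3 ± 41.4 CPM before and 86.3 ± 14.4 CPM after differentiation (SD, n = 2 each). The fold was 1.78 with a 95% interval of 0.601 to 5.30. Its log2 fold change of 0.84 (SE 0.67) became 0.15 without proliferating replicate 2. Without proliferating replicate 1 it became 2.16, with an edgeR adjusted p-value of 0.0589 in a fit that leaves 1 proliferating library, assumed to vary like the neurons, and that called 0 of the 8 genes and 0.994% of all tested genes. With the replicate number as a block it was 1.15, with an unadjusted p-value of 0.0487 and an adjusted edgeR p-value of 0.803. The blocked fit called 0 of the 8 genes, 0% of all tested genes higher and 0.0235% lower. Top2b was 1 of 8 genes under an unadjusted 0.05 in that fit, which also placed 2.7% of all tested genes there upward and 3.48% downward.

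Changes were then read within each replicate pair, since the titles place both replicate 2 libraries in the same set. With 1 library on each side a pair has no test, and its interval covers counting error only. Of the 8 genes, 3 were higher in neurons in both pairs (Ctcf, Satb1 and Top2b), 0 were lower in both, and 5 went opposite ways. Among all tested genes 28.8% were higher in both pairs and 25.5% were lower in both.

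In the replicate 1 pair all 8 ratios of neuron to proliferating CPM were above 1. On the log2 scale the median of this pair was 0.30 for the 8 genes and -4.2e-05 for all tested genes. The 8 ratios ran from 1.01 for Yy1 (95% counting interval 0.870 to 1.17) to 2.52 for Zfp143 (1.68 to 3.84). The interval lay above 1 for 4 genes, Zfp143, Satb1 (1.29, 1.09 to 1.52), Top2b (1.24, 1.14 to 1.36) and Ctcf (1.21, 1.004 to 1.47). The same held for 20.2% of all tested genes, and another 20.4% had an interval below 1. Counting error alone thus left the other 4 ratios of this pair undecided.

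In the replicate 2 pair the ratio of Top2b was 4.01, with an interval of 3.35 to 4.84. Maz went the other way, at 0.684 (0.578 to 0.807). The intervals of the other 6 genes held 1, among them Ctcf at 1.11 (0.862 to 1.45) and Zfp143 at 0.930 (0.467 to 1.88). Of all tested genes, 27.9% had an interval above 1 and 24.2% below 1 in this pair. Top2b and Maz were the 2 genes whose intervals did not overlap between the pairs, a state shared by 32.2% of all tested genes.

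**Figure D2:**
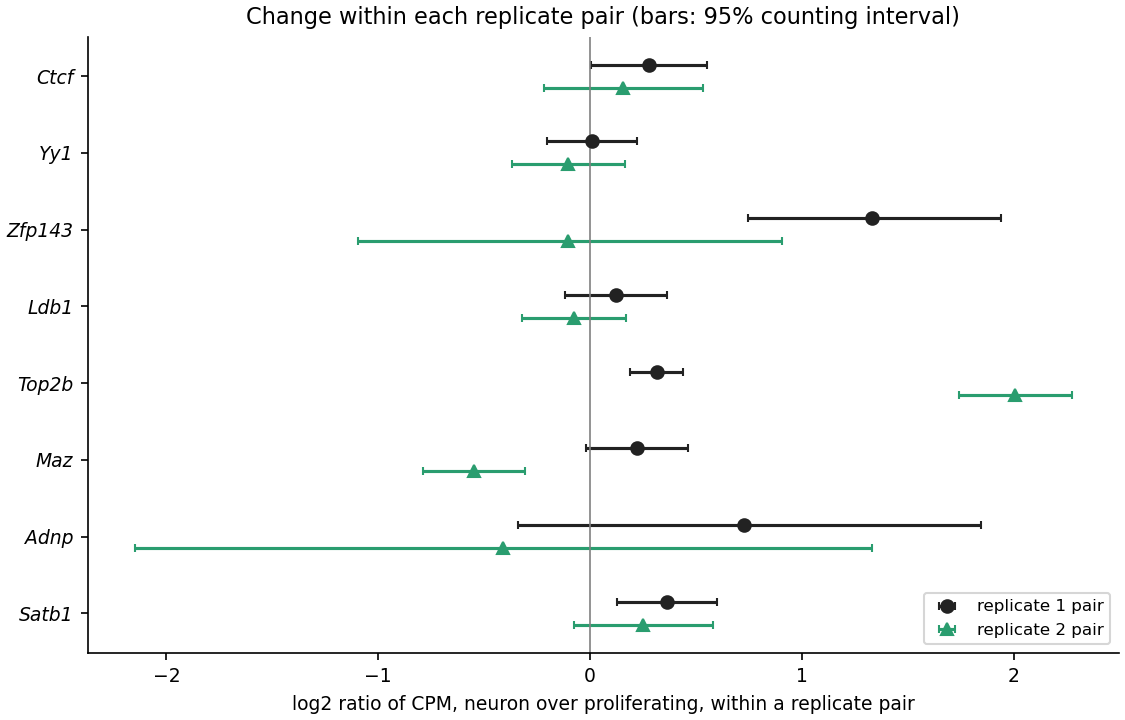
Log2 ratio of neuron to proliferating CPM for each of the 8 genes within the replicate 1 pair (black circles) and the replicate 2 pair (green triangles), with 95% counting intervals. The pairs lie apart for Top2b (0.31 and 2.00) and Maz (0.22 and -0.55), and their intervals overlap for the other 6 genes.

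Replicate 1 lay above replicate 2 for 6 of the 8 genes in proliferating cells, against 51.1% of all tested genes, and for 6 of the 8 in neurons, against 49.9%. Ldb1 and Maz were the exceptions in both groups. The extremes of the gap in proliferating cells were also the extremes of transcript GC content among the 8 genes. Top2b, with the lowest GC content of the 8 at 42.2%, was 4.09-fold higher in proliferating replicate 1 than in replicate 2, a gap wider than that of 90.2% of all tested genes. Maz, with the highest GC content at 63.6%, was 0.543 times as high in replicate 1 as in replicate 2. Ldb1 came next to Maz with 57.9% GC and a ratio of 0.687. The other 5 genes had 44.8% to 52.8% GC and ratios of 1.07 to 1.26. Across 11597 tested genes the log2 gap fell with GC content (Spearman's rho = -0.51), and in neurons rho was -0.31. These are descriptions of the libraries, since genes share them. Top2b and Ctcf in proliferating cells, and Zfp143, Adnp and Ctcf in neurons, had gaps above the middle 50% of tested genes of like GC content, and the other gaps lay within it. After the GC correction the log2 fold change of Top2b was 0.70, that of Ctcf 0.34, that of Ldb1 0.24 and that of Yy1 0.03.

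**Figure D3:**
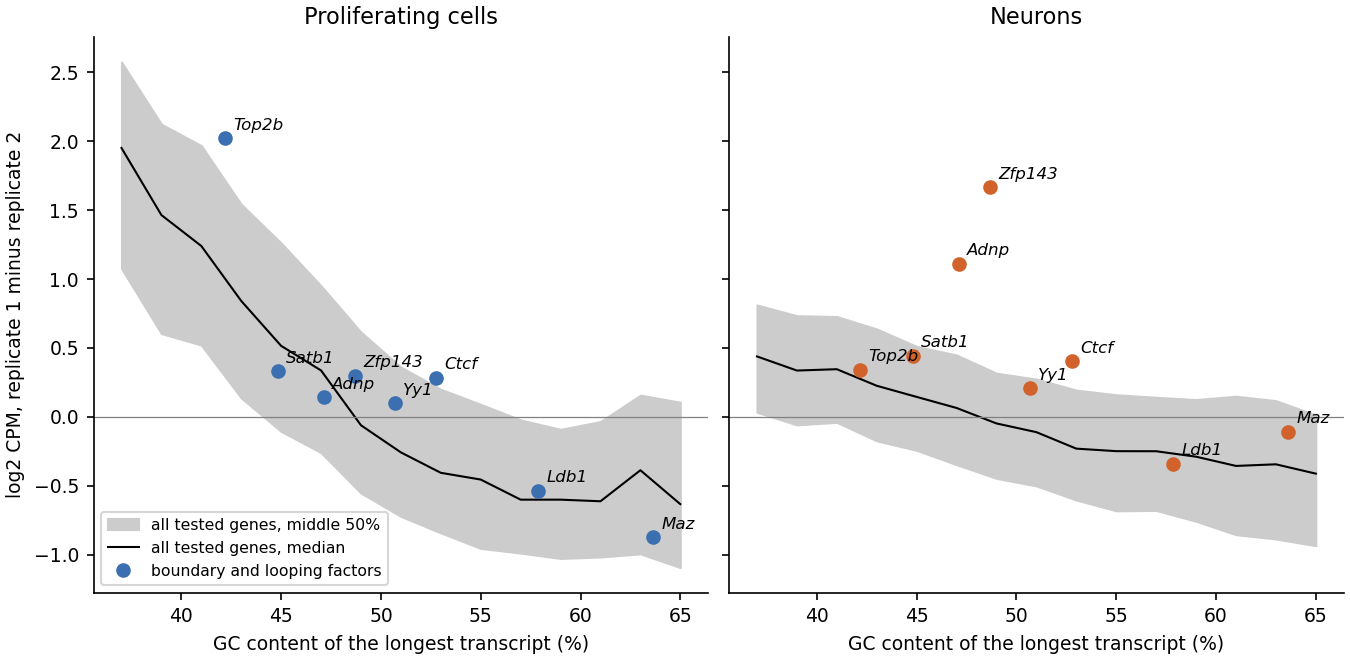
Log2 CPM of replicate 1 minus replicate 2 against the GC content of the longest transcript (%), for proliferating cells on the left and neurons on the right; points are the 8 genes, the line and grey band the median and middle 50% of all tested genes. In proliferating cells Top2b (2.02) and Ctcf (0.28) lie above the band, and Maz (-0.88) lies within it; in neurons Zfp143 (1.67), Adnp (1.11) and Ctcf (0.40) lie above it.

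Levels between genes were compared per kb of mean RefSeq transcript length, and the order depends on the length used. Merged exons in GENCODE M21 span 14613 bases for Top2b, 19027 for Satb1, 2976 for Maz and 4860 for Ctcf. The mean lengths used were 5633, 5806, 2480 and 3988 bases in the same order. Levels per kb of merged exons are not given here. In neurons the order was Top2b, Maz, Ldb1, Yy1, Ctcf, Satb1, Zfp143 and Adnp, with a mean of 15.3 ± 2.56 CPM per kb for Top2b (SD, n = 2) and values of 0.355 and 0.143 CPM per kb for Adnp. Ctcf was the fifth, at 4.49 ± 0.895 CPM per kb, and its range overlapped that of Satb1 at 4.23 ± 0.920 CPM per kb, though Ctcf was the higher in 4 of 4 libraries. Maz and Ldb1 also overlapped, and every other neighbour in the neuron order was separate in range. In proliferating cells Maz came first at 12.8 ± 5.35 CPM per kb, followed by Ldb1, Top2b and Yy1, and each of these overlapped its neighbour in range. Ctcf and Satb1 overlapped again, while Yy1 and Ctcf, Satb1 and Zfp143, and Zfp143 and Adnp were separate. On the authors' RPKM scale Top2b and Yy1 came first and second by mean in both groups. Their ranges were separate in neurons but overlapped in proliferating cells, where replicate 2 had 2.39 RPKM for Top2b and 2.73 for Yy1. The divisor of that scale was read as the summed length of a gene's transcripts, and this reading was not checked against transcript lengths. Top2b has 1 RefSeq transcript, Yy1 2 and Satb1 15, and that scale divides Top2b by 5633 bases, Yy1 by 7458 and Satb1 by 87095.

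Likeness was measured as the Euclidean distance between log2 CPM profiles over the 4 libraries, each centred on its own mean. The member nearest to Ctcf was Satb1, at a distance of 0.10, and the reverse also held. Ldb1 and Maz were each other's nearest, at 0.35, and Top2b had the most distant nearest member, Satb1 at 1.47. Outside the 8 genes, the closest among 7289 genes, all with a mean of 50 or more counts, were LOC115487886 (0.061), Zfp35 (0.074) and Smg6 (0.077) for Ctcf. Gli3, Nr6a1 and Rmst were closest to Zfp143, at 0.13 to 0.17, and shared its high value in neuron replicate 1. Nfil3, Psmb1 and Cwc25 were closest to Maz, each at a distance of 0.034 or 0.035. With 4 libraries such distances describe these samples only.

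The genes that work with these factors were read from the same fit. Of 14 genes of the cohesin cycle, which build, load, release or acetylate the ring that CTCF stops, 14 were tested, 0 were called in either direction and 13 had a log2 fold change above 0. Their median was 0.58, against 0.26 for the 8 boundary and looping factors and 0.02 for all tested genes. Leaving out proliferating replicate 1 moved that median to 1.84, and leaving out proliferating replicate 2 moved it to -0.0097. In 13 of the 14 genes proliferating replicate 2 was the lowest library, as it was in 3 of the 8 boundary and looping factors and in 37.8% of all tested genes. The median GC content was 42.8%, 49.7% and 50.1% in the same order. After the GC correction the median log2 fold change was 0.49, 0.23 and 0.02 in that order. The highest change was that of Esco2, a cohesin acetyltransferase, with 63 and 4 counts before and 90 and 44 counts after differentiation. On the log2 scale its fold change was 1.03 (SE 0.88), which became 3.43 with proliferating replicate 1 left out, 0.22 with proliferating replicate 2 left out and 0.58 with neuron replicate 1 left out. Cdca5, which encodes the protein sororin that holds cohesin on replicated DNA, had the lowest at -0.06 (SE 0.56). It turned positive after the GC correction (0.01).

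Of 20 genes for partners of these factors, such as LIM-domain proteins, HP1 proteins and CHD4, 18 were tested and 0 were called, with 12 log2 fold changes above 0 and a median of 0.15, which was -0.088 with neuron replicate 2 left out and 0.38 with proliferating replicate 2 left out. Isl1, a LIM-homeodomain partner of LDB1 in sensory neurons, was at 0 counts in all 4 libraries. Rybp, a Polycomb protein that binds YY1, had the highest value at 1.00 (SE 0.74). Leaving out single libraries moved it between 0.36 (neuron replicate 2) and 1.96 (proliferating replicate 1), and it was 0.46 with proliferating replicate 2 left out. Thap11, whose protein shares promoters with ZNF143, had the lowest at -0.39 (SE 0.53). Of 10 relatives of the factors 6 were tested and 0 called, with all 6 log2 fold changes above 0 and a median of 0.44. Ctcfl, the germline relative of Ctcf, had 1 count in proliferating replicate 1 and 0 in the other libraries.

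Top2a, the topoisomerase of dividing cells, had the highest value among the relatives. It was counted 2035 and 162 times before differentiation and 2599 and 1285 times in neurons, so proliferating replicate 2 was low for it as for Top2b. The log2 fold change was 0.88 (SE 0.85, adjusted edgeR p-value 0.9998). Without proliferating replicate 1 it was 2.98, with an adjusted edgeR p-value of 0.0321 in the same fit with 1 proliferating library, whose spread comes from the neurons and which called 127 genes. Without proliferating replicate 2 it was 0.06.

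**Figure D4:**
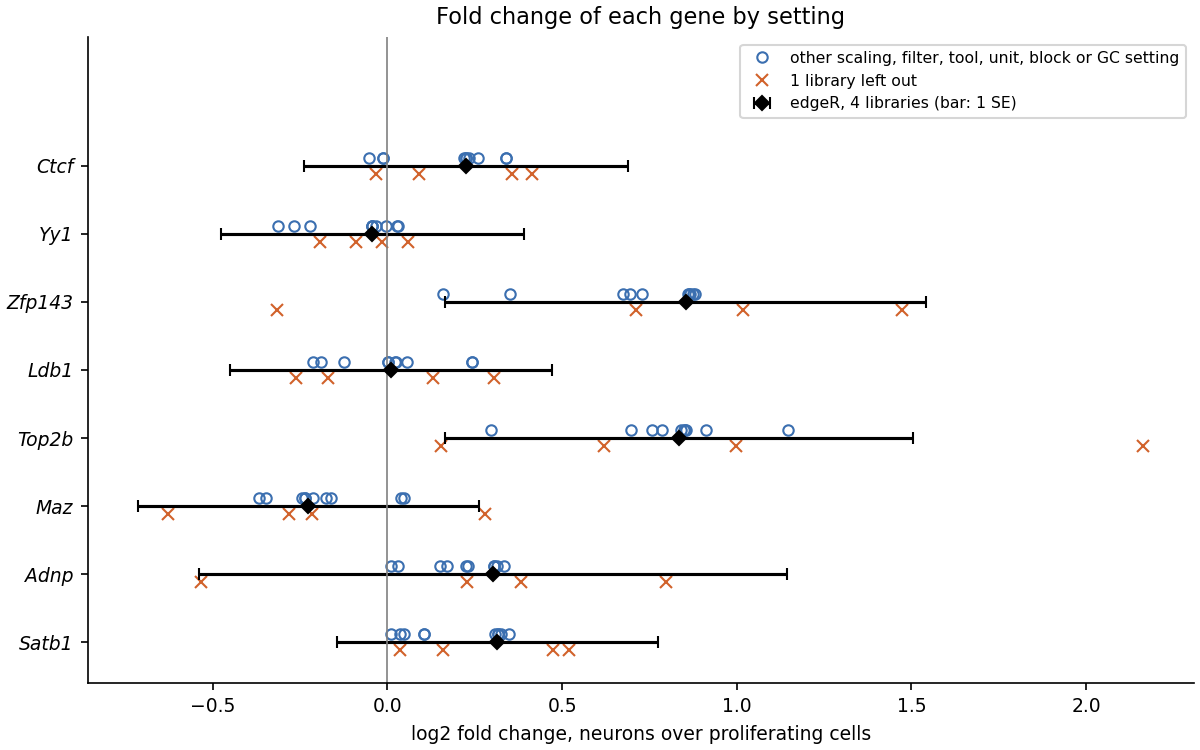
Log2 fold change of each of the 8 genes, neurons over proliferating cells, from edgeR on 4 libraries (black diamonds, bar 1 SE), under 10 other settings (open circles) and with 1 library left out (crosses). Values of Ctcf, Yy1, Ldb1 and Maz fall on both sides of 0 among the open circles, and leaving out a library moves Top2b between 0.15 and 2.16.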

How the data were processed

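RNA from 4 samples of mouse iMOP cells was depleted of ribosomal RNA (500 ng input) and sequenced as stranded libraries, with paired reads of 150 bases in a pool of 8 libraries per the labels' protocols. The other 4 libraries were not analysed here. For each library the authors deposited 1 table of raw counts and 1 of RPKM values, both by gene. Per the submitters' processing notes HISAT2, SAMtools, featureCounts, DESeq2, deepTools 3.4.3 and mm10 were used, with no role given. Annotation, strand setting and the treatment of multiply mapped reads are not given in the sources used here. The deposited RPKM equals the count divided by the column total and by 1 length per gene. That length was read as the summed length of the gene's RefSeq transcripts (GRCm38.p6), which was not checked. Divided by their number, it was taken as the mean transcript length.

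edgeR 4.0.16 in R 4.3.3 was run on all 4 libraries with TMM factors, filterByExpr (minimum count 10, minimum total 15), glmQLFit and glmQLFTest, and group alone in the design. Calls are Benjamini-Hochberg adjusted p-values under 0.05 over 12783 genes, two-sided. SE was taken from the fold change and its F statistic. Pair intervals are exact conditional (Clopper-Pearson) 95% intervals. They cover counting error only, as reads without molecular identifiers are not independent molecules. Pair values on the log2 scale otherwise use a prior count of 2. With 2 libraries against 2 an exact permutation test cannot go below p = 0.333, so none was run. Both replicate 2 titles carry the words set 2, so replicate numbers were taken as pairs. Deviations of same-numbered libraries from their group means correlated at r = 0.33 across genes. GC content was that of the longest GENCODE M21 transcript, found for 90.7% of tested genes. The GC correction, a lowess (span 0.3) per library entered as an offset, was added after seeing the data.

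Alternatives were RLE factors, library size alone, the 18S row left out, DESeq2 1.42.0, no gene filter, a fit blocked on replicate number, each library left out in turn, and limma-trend (limma 3.58.1) on log2(RPKM + 1) or with 0.1 as the pseudocount. The methods were tested on simulated data. The named genes are the 8 factors, the highest and lowest fold change of each related list (the lowest of the relatives is not reported here), and the 3 nearest profiles for Ctcf and for the extremes of the 8. Isl1, Ctcfl, Pax2, Pax8, Pou4f3 and Otof, all at or near 0 counts, and the overlapping genes were named after their values were seen. Members and lists were chosen with earlier results of these data known. The labels call the replicates biological. What separates them is not stated, so p-values measure the spread between these libraries.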

Additional observations from a re-analysis of the deposited data

How the results depend on the processing

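Among the 8 boundary and looping factors 0 were called under each of the 14 alternatives. The count of called genes over the whole table was 0 in the main test (438 unadjusted), with RLE factors (442 unadjusted), without the 18S row (448) and with the GC correction (548). It was 2 with library size alone, 1 with log2(RPKM + 1), 2 with log2(RPKM + 0.1), 59 with DESeq2 and 163 without a gene filter. It was 3 with the replicate block and 5 with the GC correction and the replicate block, and 13 to 127 with 1 library left out. The replicate block changed no call of the named genes.

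Signs of fold changes turned under several settings. Zfp143 (0.85 in the main fit) and Adnp (0.30) turned only with neuron replicate 1 left out, at -0.32 and -0.53. Ctcf was -0.051 with library size alone, -0.012 with log2(RPKM + 1) and -0.014 with log2(RPKM + 0.1). Ldb1 was -0.21, -0.13 and -0.19 under the same settings. The GC correction gave 0.031 for Yy1 (0.029 with the replicate block), 0.040 for Maz (0.047 with the block) and 0.013 for Cdca5 (0.048 with the block). With each library left out in turn the ranges were -0.034 to 0.41 for Ctcf, -0.19 to 0.058 for Yy1, -0.32 to 1.47 for Zfp143, -0.26 to 0.30 for Ldb1, -0.63 to 0.28 for Maz and -0.53 to 0.80 for Adnp. They were -0.43 to 0.35 for Cdca5 and -0.74 to 0.0093 for Thap11. Top2b ran from 0.15 to 2.16 and Satb1 from 0.035 to 0.52, and Satb1 was 0.035 with library size alone, 0.0094 with log2(RPKM + 1) and 0.048 with log2(RPKM + 0.1).

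The median of the 8 genes was -0.0080 with library size alone, which set the median of all tested genes to -0.27, -0.0015 with log2(RPKM + 1), 0.0088 with log2(RPKM + 0.1), and -0.11 to 0.47 with a library left out. That of the cohesin cycle genes was 0.11 with library size alone, 0.16 with log2(RPKM + 1) and 0.44 with log2(RPKM + 0.1). It was 0.49 with the GC correction, 0.55 with the GC correction and the replicate block, and -0.0097 to 1.84 with a library left out. That of the partners was -0.20, -0.013 and -0.066 under the same scaling and RPKM settings, and -0.088 to 0.38 with a library left out. The median of the relatives was 0.14 with library size alone, 0.47 without a gene filter, 0.10 with log2(RPKM + 1), 0.18 with log2(RPKM + 0.1), 0.41 with the GC correction and the replicate block, and 0.17 to 0.64 with a library left out. The cause of these differences was not tested. Depth limits Adnp and Zfp143 most, at 7 to 21 and 17 to 86 counts.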
